A study of Capra hircus with 24 samples.

Results

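The 10 genes described here encode enzymes that make, lengthen and desaturate fatty acids, together with a transcription factor that drives such genes. They are ACLY, ACACA, FASN, SCD, FADS1, FADS2, ELOVL5, ELOVL6, SREBF1 and LPIN1, taken from the deposited tables by gene symbol. All 10 were among the 20326 genes listed, and all 10 reached the level for testing, set at a value no lower than 1 in 3 of the 24 libraries, as did 13049 genes in all.

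The cells were dermal papilla cells of cashmere goats (Capra hircus). These mesenchymal cells sit at the follicle's base and signal to the epithelium that builds the hair. Their RNA was sequenced in 24 libraries, 3 in each of 8 groups. The groups cross secondary follicles, which grow the fine cashmere undercoat, and primary follicles, which grow coarser guard hair, with October and June and with males and females. The labels place October in anagen, the phase of hair growth, and June in early anagen, so month and growth stage cannot be told apart. The sources used here do not give the goats' age or breed, any culture of the cells or any pooling of animals. Each group's 3 libraries are labelled biological replicates with no animals named, so p-values measure the spread between these libraries, which may be technical. In RNA from a cell preparation, more cells of a type and more RNA per cell cannot be told apart.

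Fatty acid synthesis starts from citrate, which ACLY splits to give acetyl-CoA in the cytosol. ACACA carboxylates it to malonyl-CoA, FASN builds palmitate from both, ELOVL6 lengthens palmitate, and SCD puts the first double bond into the saturated chain. FADS2, ELOVL5 and FADS1 work in turn on polyunsaturated fatty acids, while LPIN1 makes the diacylglycerol from which triglycerides and phospholipids are built. SREBF1 encodes SREBP-1, a membrane-bound transcription factor that is cut and released to activate these genes; in mice, loss of Scd1 shrinks the sebaceous glands and thins the coat.

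The values are the authors' normalised expression values, whose library totals lay between 959766 and 1045876. Within a group, r across genes was 0.993 to 0.997. Between groups the mean r of a pair was 0.954 to 0.992, the last between secondary and primary October males. All 9 mesenchymal markers were present in every group, and 11 to 13 of 16 papilla markers had a group mean of at least 1, VCAN and RSPO3 among them. CORIN stayed at 0.217 or below in every group mean, and ALPL passed 1 only in primary June females, at 2.03. SOX2, a papilla marker, averaged 14.2 in secondary October males and 12.4 to 15.9 in the 4 primary groups, against 0.257 to 0.333 in the other 3 secondary groups. Secondary October males therefore stand apart from the other secondary cells. Results of the members that rest on them are also given by sex, while those of pathway genes and markers are in part means over the sexes only.

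Markers of other cell types were examined next. Of 10 sebocyte markers, 2 had a group mean of at least 1, CIDEA and MGST1, while AWAT1, AWAT2, MC5R, ELOVL3 and FAR2 were at 0.567 or below in all group means. The sebocyte list summed to 96.45 to 175.85 over the libraries. Of 10 adipocyte markers in the tables, 4 to 7 had a mean of at least 1 in each group. Among the others, ADIPOQ, LPL and PLIN4 stayed at 0.827 or below in every group mean. The adipocyte list summed to 382.48 to 409.76 in secondary June males and 154.58 to 167.85 in primary October males, the highest and lowest groups. Keratinocyte markers, 12 in the tables, summed to 282.77 to 308.96 in secondary October females, against 4.76 to 69.14 in the other 21 libraries, with KRT5 at a mean of 197 there. The part of these marker signals in the results was not tested.

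**Figure D1:**
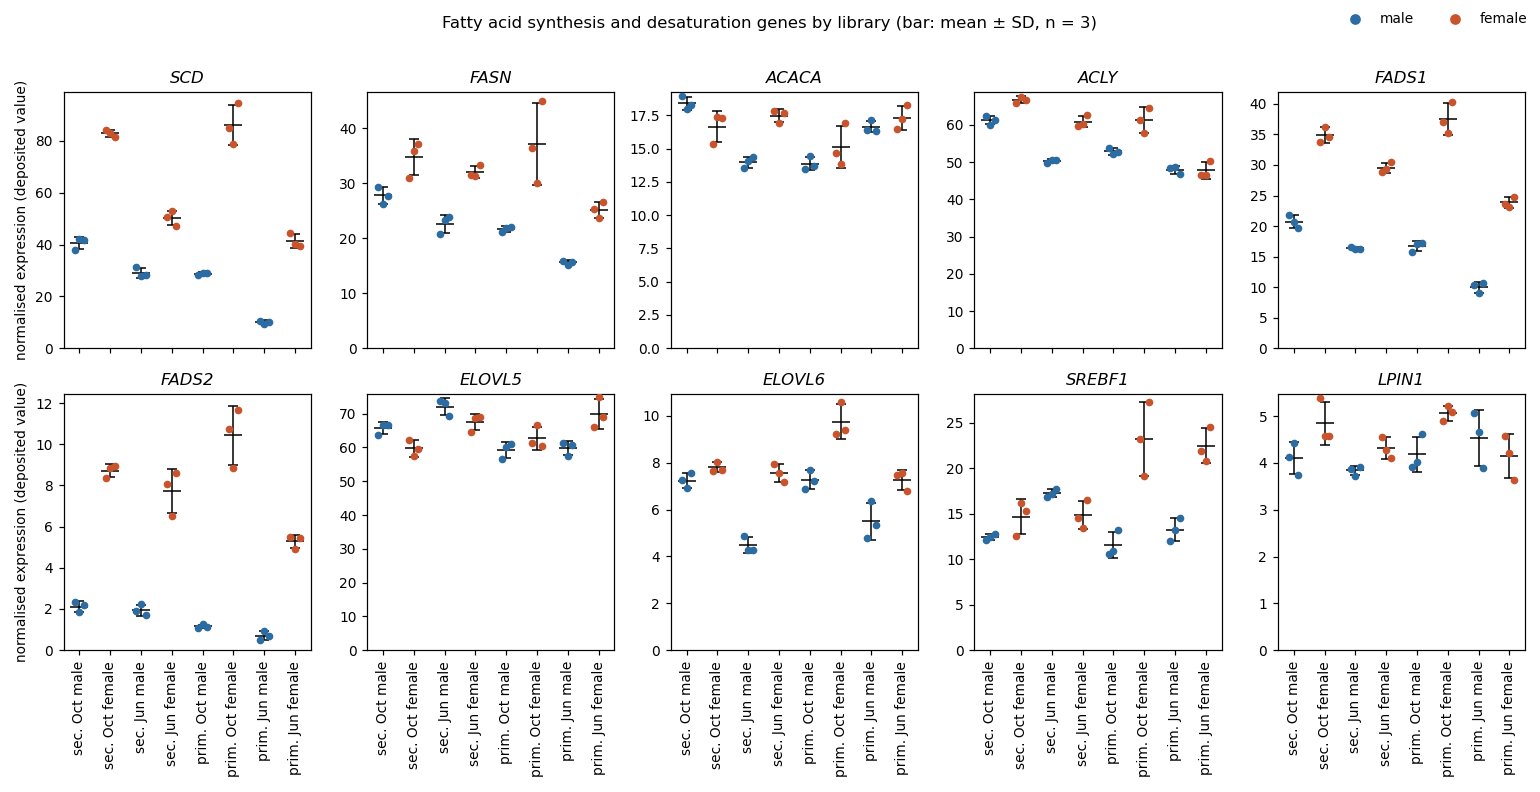
Normalised expression (deposited value, linear axis from 0) of the 10 genes in each library, by group, with males in blue and females in orange; bars give the mean and SD of 3 libraries. SCD, FADS1 and FADS2 in males lie below females in each follicle type and month, whereas the highest and lowest group means of ELOVL5 and LPIN1 differ by ratios of 1.22 and 1.32.

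The genes differed in how far they moved over the 8 groups. The ratio of the highest to the lowest group mean was 15.0 for FADS2, 8.63 for SCD and 3.75 for FADS1, the desaturases, and 2.38 for FASN, 2.18 for ELOVL6 and 2.01 for SREBF1. It was 1.40 for ACLY, 1.33 for ACACA, 1.32 for LPIN1 and 1.22 for ELOVL5. Within groups the median coefficient of variation of the 3 libraries ran from 2.07% for ACLY to 13.0% for FADS2.

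SCD (gene ID 100860763), the stearoyl-CoA desaturase, had its lowest values in primary June males. In October it stood at 38.1, 42.3 and 41.7 in secondary males, against 84.1, 82.9 and 81.5 in secondary females. In June the secondary values were 31.4, 27.9 and 28.2 in males, against 50.5, 52.9 and 47.3 in females. The sexes did not overlap in secondary cells in either month. Primary cells in October had SCD at 28.2, 29.2 and 29.0 in males, against 85.1, 78.8 and 94.5 in females. In primary cells in June the values were 10.7, 9.22 and 10.1 in males, against 44.4, 40.3 and 39.5 in females. Ordered by mean, October females of both follicle types came first, at 86.1 ± 7.87 in primary and 82.9 ± 1.31 in secondary cells (SD, n = 3), and overlapped. Secondary June females followed apart from both, then primary June females and secondary October males, which overlapped, then secondary June and primary October males, which overlapped, and last primary June males, apart from all others.

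FADS1 (gene ID 102178247), the delta-5 desaturase of polyunsaturated fatty acids, followed nearly the same order. Secondary cells in October held 21.8, 20.6 and 19.7 in males, against 33.8, 36.3 and 34.5 in females. In June FADS1 read 16.6, 16.3 and 16.3 in secondary males, against 28.9, 29.3 and 30.4 in secondary females. Every male library lay below every female one in these cells. Primary males in October gave 15.8, 17.0 and 17.2 for FADS1, against 37.0, 35.3 and 40.3 in primary females. Primary males in June gave 10.4, 8.98 and 10.6, against 23.6, 23.2 and 24.8 in primary females. All 12 male libraries, at 21.8 or below, lay under all 12 female libraries, at 23.2 or above.

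FADS2 (gene ID 102171133), the delta-6 desaturase and first step of the polyunsaturated pathway, was separated by sex most widely. Its October values in secondary cells were 2.33, 1.83 and 2.18 in males, against 8.37, 8.86 and 8.93 in females. In June secondary cells had 1.88, 2.24 and 1.71 in males, against 8.09, 6.52 and 8.58 in females. The lowest female value in secondary cells was thus well above the highest male value. For October primary cells FADS2 was 1.08, 1.25 and 1.12 in males, against 10.7, 8.86 and 11.7 in females. For June primary cells it was 0.49, 0.92 and 0.68 in males, against 5.48, 4.90 and 5.46 in females. The 3 libraries of primary June males were the only ones of the 24 below a value of 1, so fold changes that use them rest on very low values.

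FASN (gene ID 100861286), the fatty acid synthase, moved less. The secondary October values were 29.3, 26.3 and 27.7 in males, against 31.0, 35.9 and 37.2 in females. The secondary June values were 20.8, 23.4 and 23.8 in males, against 31.5, 31.4 and 33.3 in females. Males lay below females in both months, in October by a narrow margin. The primary October values were 21.1, 21.9 and 22.0 in males, against 36.4, 30.1 and 45.0 in females, a group with a wide spread. The primary June values were 15.9, 15.2 and 15.7 in males, against 25.3, 23.6 and 26.5 in females. In the order of FASN means the first 3 groups were primary October, secondary October and secondary June females, each overlapping the next, and primary June males, at 15.6 ± 0.382, were apart at the bottom.

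ACLY, ACACA, ELOVL5 and LPIN1 had the smallest ranges. ACLY (gene ID 102181894), ATP citrate lyase, ranged over the libraries from 46.53 in a primary June female to 67.63 in a secondary October female, and primary June males and females overlapped at the bottom of its order. ACACA (gene ID 100861224), acetyl-CoA carboxylase 1, ranged from 13.45 in a primary October male to 18.95 in a secondary October male. ELOVL5 (gene ID 100861282), an elongase of polyunsaturated fatty acids, and LPIN1 (gene ID 102180603), lipin 1, overlapped between every 2 groups next to each other in their orders. ELOVL6 (gene ID 102181762), the elongase of palmitate, averaged 9.74 ± 0.748 in primary October females, apart from all other groups, and 4.47 ± 0.344 in secondary June males, the lowest mean, whose libraries overlapped those of primary June males.

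SREBF1 (gene ID 100860908) had a different pattern. In primary October cells it was 10.6, 10.9 and 13.2 in males, against 23.2, 19.2 and 27.3 in females. Primary June cells had 12.0, 13.2 and 14.5 in males, against 21.9, 20.8 and 24.6 in females. The primary sexes did not overlap. Secondary October cells had 12.1, 12.4 and 12.8 in males, against 12.5, 16.2 and 15.3 in females, which overlapped. Secondary June cells had 16.8, 17.1 and 17.7 in males, against 14.5, 13.5 and 16.5 in females, so that males were above females there. Primary females of both months were at the top of the order and overlapped, and every other group mean lay between 11.5 and 17.2.

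Males were compared with females within each follicle type and month. The 3 desaturases were lower in males in all 4 combinations, and FASN was too. In primary October cells FADS2 was lower in males by 9.06-fold as a ratio of group means, SCD by 2.99-fold, FADS1 by 2.25-fold and FASN by 1.72-fold. In primary June cells the same ratios were 7.58 for FADS2, 4.15 for SCD, 2.38 for FADS1 and 1.61 for FASN. In secondary October cells they were 4.13 for FADS2, 2.04 for SCD, 1.69 for FADS1 and 1.25 for FASN, and in secondary June cells 3.98 for FADS2, 1.72 for SCD, 1.80 for FADS1 and 1.42 for FASN. On the log2(value + 1) scale of the limma fit, SCD differed by -1.95 (SE 0.0665, adjusted p = 1.14e-16) in primary June cells and by -0.76 (adjusted p = 4.26e-09) in secondary June cells, its largest and smallest sex differences.

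The count of the 10 genes called lower in males at an adjusted p under 0.05 was 5 in secondary October, 7 in secondary June, 8 in primary October and 7 in primary June cells. Over all 13049 genes limma called 40.4%, 39.5%, 33.6% and 45.4% in the same 4 combinations, of which 20.9%, 18.6%, 17.8% and 22.3% of genes were lower in males, so the members' shares lay above the background. The count called higher was 1 in secondary October cells, ELOVL5 at 0.14, and 0 in the other 3, where 20.9%, 15.8% and 23.1% of all genes were higher; in secondary October cells 19.5% were. The members' median log2 difference was -0.21, -0.39, -0.55 and -0.50 in that order of combinations, while that over all genes was -0.0077, 0.0085, -0.0011 and 0.0037. SCD, FADS1 and FADS2 were called in all 4 combinations under every alternative run for them, whichever library was left out.

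The remaining genes differed between combinations. ELOVL6 differed by -0.65 in secondary June (adjusted p = 5.47e-07 in limma), -0.38 in primary October and -0.35 in primary June cells, and by -0.10, not called, in secondary October cells. SREBF1 fell to 11.5 ± 1.43 in males, against 23.2 ± 4.05 in females of primary October cells (SD, n = 3 each), a log2 difference of -0.94 (limma adjusted p = 2.9e-07), and differed by -0.72 in primary June cells. It was not called in secondary cells, at -0.22 in October and 0.21 in June. The October difference was called with the replicate number as a block (limma adjusted p = 0.0412), under a common total (adjusted p = 0.0499) and without secondary October female replicate 1 (-0.32, adjusted p = 0.0316), and that in June with the compared groups alone (adjusted p = 0.035). The male minus female difference was higher in secondary than in primary cells by 0.93 in June and 0.73 in October, both called in the test of that difference. ACLY was lower in males, at -0.27 in secondary June and -0.21 in primary October cells, and stood at 0.01 in primary June cells. ACACA was called in secondary June cells, at -0.30 (limma adjusted p = 0.000471), and ELOVL5 was lower in primary June cells, at -0.22. LPIN1 was called in primary October cells, at -0.23 with an adjusted p of 0.0438.

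Several of the smaller calls rested on single libraries or on the scaling. In secondary October cells FASN, at -0.31, was not called without secondary October female replicate 3 (-0.26, limma adjusted p = 0.0574), ACLY, at -0.12, and ELOVL5 each lost their call in 4 of the 6 fits that left out a library, and 3 members were called in all without secondary October female replicate 3. The LPIN1 call in primary October cells ended in 5 of 6 such fits, with adjusted p up to 0.154, and ACACA was called there without primary October female replicate 2 (-0.17, limma adjusted p = 0.0426). Under rescaling of libraries to a common total the split was 0 higher and 7 lower in secondary October cells, and 1 higher and 7 lower in secondary June cells. Keratinocyte markers were lower in males in secondary October cells, 9 of 10 tested, where 20.9% of all genes were lower. In primary cells they were higher in males, 5 of 10 in October and 7 of 10 in June (15.8% and 23.1% of all genes). In secondary June cells these markers summed to 5.26 to 5.91 in males and 4.76 to 5.72 in females. Their part in the differences between the sexes was not tested.

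An average of the 4 sex differences was added after the data were seen. By this average 9 of the 10 genes were lower in males and 0 higher, against 50% of all genes called, 24.5% lower and 25.5% higher, with a median of -0.39 for the members and 0.0019 for all genes. FADS2 averaged -1.88 (SE 0.0533), SCD -1.32 (SE 0.0333), FADS1 -0.96, FASN -0.55, SREBF1 -0.42 and ELOVL6 -0.37. The calls of ACACA, at -0.08, and LPIN1, at -0.11, ended in 5 and 8 of the 24 fits that left out a library. With the 8 group means as single samples and follicle type and month as blocks, FADS2 alone among the members was called (limma adjusted p = 0.0413), next to 10 genes in all, while SCD had an adjusted p of 0.147 and FADS1 of 0.0671.

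**Figure D2:**
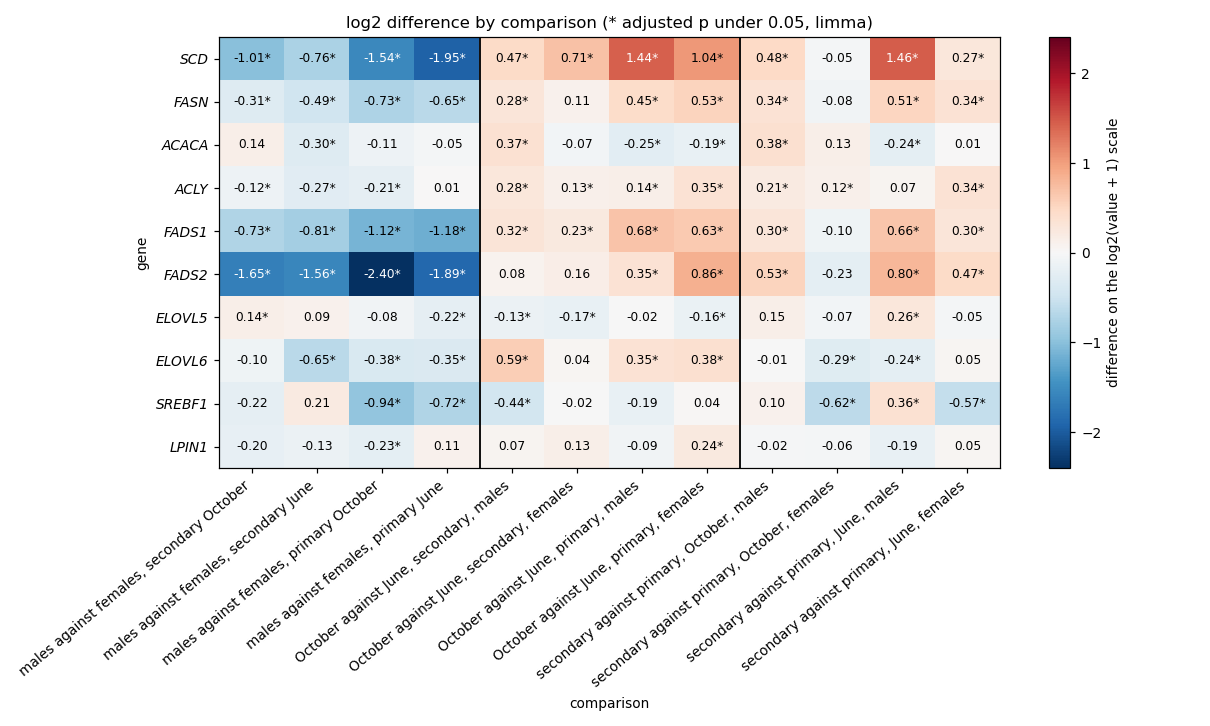
Differences on the log2(value + 1) scale for the 10 genes in the 12 comparisons within a sex or between the sexes, with an asterisk at a limma adjusted p under 0.05. The 4 columns of males against females are blue for SCD, FASN, FADS1 and FADS2 in each, from -0.31 for FASN in secondary October to -2.40 for FADS2 in primary October cells.

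October was compared with June within each follicle type. SCD was higher in October in both sexes of both follicle types, and FADS1 and ACLY were too. In primary cells SCD averaged 28.8 ± 0.503 in October against 9.98 ± 0.728 in June in males, and 86.1 ± 7.87 in October against 41.4 ± 2.64 in June in females (SD, n = 3 each). The mean log2 difference over the sexes was 1.24 for SCD in primary cells (limma adjusted p = 5.32e-16), with FADS1 at 0.66, FADS2 at 0.60, FASN at 0.49, ELOVL6 at 0.37 and ACLY at 0.24. ACACA went the other way at -0.22, and ELOVL5 at -0.09. In secondary cells SCD differed by 0.59 (SE 0.0471, limma adjusted p = 2.43e-10), ELOVL6 by 0.32, FADS1 by 0.27, ACLY by 0.21, FASN by 0.19 and ACACA by 0.15, while SREBF1, at -0.23, and ELOVL5, at -0.15, were lower in October. FADS2 was not called there, at 0.12, nor LPIN1 in either follicle type.

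These counts, 6 higher and 2 lower in primary as in secondary cells, stand against a background where 60.9% of all genes were called in primary cells (28.6% higher, 32.3% lower) and 62.9% in secondary cells (29% higher, 33.9% lower). The 8 called among 10 are thus only somewhat above the share of all genes, with more higher than lower calls among the members. The median log2 difference of the members was 0.30 in primary and 0.17 in secondary cells, against -0.0035 and -0.011 over all genes. With the 8 group means as single samples, 0 members were called by limma in either follicle type and 0 had an unadjusted p under 0.05. In that fit 0 genes in all were called in primary cells and 1 in secondary cells. The fit had no term for sex, so differences between males and females counted as spread. The 0 calls of genes that differ by sex therefore cannot show that month had no effect. The ELOVL5 call in primary cells ended in 8 of the 12 fits without a library, with adjusted p up to 0.158, and after rescaling to a common total, which left 6 higher and 1 lower.

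Within the sexes, primary females had 7 members higher and 2 lower in October (48.2% of all genes called, 22.7% higher and 25.6% lower), and primary males 6 higher and 1 lower (55.5% called, 26% higher and 29.5% lower). FADS2 averaged 10.4 ± 1.43 in October against 5.28 ± 0.329 in June in primary females, a log2 difference of 0.86, and 1.15 ± 0.0889 against 0.697 ± 0.215 in primary males, a difference of 0.35. The male call was lost without primary June male replicate 1 (0.26, limma adjusted p = 0.0633), and with a pseudocount of 0.1 the male difference was 0.68. LPIN1 was called in primary females, at 0.24, a call that ended without primary June female replicate 3 or primary October female replicate 2 (adjusted p up to 0.136 in limma). ACACA, at -0.19, and ELOVL5, at -0.16, each lost their call in primary females in 3 of 6 fits without a library.

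In secondary cells, males had 6 members higher and 2 lower in October (56.5% of all genes called, 25.3% higher and 31.2% lower) and females 3 higher and 1 lower (51.3% called, 24.2% higher and 27.1% lower). ELOVL6 averaged 7.24 ± 0.310 in October against 4.47 ± 0.344 in June in males, and 7.80 ± 0.207 in October against 7.57 ± 0.385 in June in females. The difference between the sexes in this effect, 0.55, was called. ACACA, at 0.37, and SREBF1, at -0.44, changed in males and not in females, at -0.07 and -0.02, and both differences between the sexes were called as well, that of ACACA at 0.44 and that of SREBF1 at -0.43. The call for SREBF1 was lost in 8 of 12 fits without a library. FASN, at 0.28 in males, was not called without secondary June male replicate 1 (0.22, limma adjusted p = 0.0735) or secondary October male replicate 1 (0.25, adjusted p = 0.0572), nor after rescaling to a common total (0.20, adjusted p = 0.0671). ACLY, at 0.13 in females, was not called without secondary June female replicate 1 (0.12, limma adjusted p = 0.0556), and the ELOVL5 call in males, -0.13, ended in 3 of 6 fits without a library. Keratinocyte markers were higher in October in 10 of 10 tested in secondary and 9 of 10 in primary cells (29% and 28.6% of all genes). Of 7 tested adipocyte markers 6 were lower in October in secondary cells (33.9% of all genes). The part of these markers in these results was not tested.

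Secondary cells were then compared with primary cells in each month. In June, SCD was higher in secondary cells of both sexes, as were FADS2, FADS1 and FASN, while in October these 4 were called in males and not in females. The June mean over the sexes was 0.87 for SCD (SE 0.0471, limma adjusted p = 2.43e-13), 0.63 for FADS2 (0.96 with a pseudocount of 0.1), 0.48 for FADS1, 0.42 for FASN, 0.21 for ACLY and 0.11 for ELOVL5, with ACACA lower at -0.11. The October means were 0.22 for SCD (limma adjusted p = 0.00103), 0.26 for ACACA and 0.17 for ACLY, with SREBF1 at -0.26 and ELOVL6 at -0.15 lower. FASN at 0.13, FADS1 at 0.10 and FADS2 at 0.15 were not called in October.

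In June 6 members were higher and 1 lower, with 61.9% of all genes called (31.6% higher, 30.3% lower), and in October 3 were higher and 2 lower, with 31.5% called (17.5% higher, 14.1% lower). The shares called are near those of all genes in June and somewhat above them in October. The median log2 difference of the members was 0.16 in June and 0.11 in October, against 0.0041 and -0.00012 over all genes. With single samples formed by the 8 group means, limma called 0 members in either month, 0 with an unadjusted p under 0.05. In that fit 310 genes in all were called in June and 0 in October. It again had no term for sex, so the 0 calls cannot show that follicle type had no effect. The ACACA call in June ended in 4 of 12 fits without a library and after rescaling to a common total, which left 6 higher and 0 lower, the ELOVL5 call ended without primary June female replicate 1 (0.09, adjusted p = 0.0566 in limma), and the October ELOVL6 call ended in 8 of 12 fits. Without primary October female replicate 3, FASN, at 0.20, and FADS1, at 0.12, were called in October (limma adjusted p = 0.00626 and 0.033). By the mean over the sexes, 1 of 10 tested keratinocyte markers was higher and 7 lower in secondary cells in June. In October 8 were higher and 1 lower, but the sexes differed in the summed list. In October males it was 34.61 to 40.99 in secondary and 64.47 to 69.14 in primary cells. In October females it was 282.77 to 308.96 in secondary and 34.02 to 39.38 in primary cells. Of 7 adipocyte markers 6 were higher in June and 1 in October. The part of these markers in these results was not tested.

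The sexes differed in these effects. In June SCD averaged 29.2 ± 1.94 in secondary against 9.98 ± 0.728 in primary males, and 50.2 ± 2.80 in secondary against 41.4 ± 2.64 in primary females (SD, n = 3 each). The log2 differences were 1.46 in males and 0.27 in females, and the difference between them, 1.19, was called. Males had 6 members higher and 2 lower (59.6% of all genes called, 30.7% higher and 28.9% lower), 7 and 1 after rescaling to a common total, and females 5 higher and 1 lower (49.3% called, 25% higher and 24.3% lower). SREBF1 was higher in secondary males, at 0.36, and lower in secondary females, at -0.57 (limma adjusted p = 0.00016). FADS2 differed by 0.80 in males, 1.39 with a pseudocount of 0.1, and by 0.47 in females. The difference between the sexes for FADS2, 0.33, was not called, but was called with a pseudocount of 0.1 (0.85, limma adjusted p = 0.00376). The ELOVL6 call in males, -0.24, ended without primary June male replicate 2 (-0.15, limma adjusted p = 0.1), and LPIN1 was called in males without primary June male replicate 3 (-0.27, adjusted p = 0.0119).

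In October 6 members were higher in secondary males and 0 lower (18.5% of all genes called, 10.9% higher and 7.63% lower), whereas in females 1 was higher and 2 lower (35.5% called, 18.3% higher and 17.2% lower). In males the differences were 0.53 for FADS2 (0.82 with a pseudocount of 0.1), 0.48 for SCD (limma adjusted p = 1.19e-05), 0.38 for ACACA, 0.34 for FASN, 0.30 for FADS1 and 0.21 for ACLY. In females SCD stood at -0.05, FASN at -0.08, FADS1 at -0.10 and FADS2 at -0.23, none of them called, and SREBF1, at -0.62, and ELOVL6, at -0.29, were lower in secondary cells. Of the 10 tests of males minus females in October, 7 were called, all positive and SCD, FASN, FADS1 and FADS2 among them, against 26.7% of all genes (13.7% higher, 13% lower), and 4 were called when the compared groups alone were fitted. FASN in males was not called without secondary October male replicate 1 (0.31, limma adjusted p = 0.0597), and ACLY in females, at 0.12, lost its call in 3 of 6 fits. Without primary October female replicate 2, FASN, at -0.22, and FADS2, at -0.33, were called lower in secondary females (limma adjusted p = 0.0377 and 0.0232), and ACACA was called higher in them without secondary October female replicate 1 (0.19) or primary October female replicate 3. Secondary and primary October males are also the pair of groups with the closest transcriptomes, with SOX2 at 14.2 and 15.9.

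The follicle type effect differed between the months for 5 members. October minus June, the secondary against primary difference was -0.65 for SCD, -0.48 for FADS2, -0.38 for FADS1, -0.29 for FASN and 0.37 for ACACA, averaged over the sexes. That is 1 called higher and 4 lower, against 46.2% of all genes called, 23.3% higher and 22.9% lower. From June to October, the difference in males went from 1.46 to 0.48 for SCD and -0.24 to 0.38 for ACACA. For FADS2 it went from 0.80 to 0.53, for FADS1 from 0.66 to 0.30 and for FASN from 0.51 to 0.34. In females SCD went from 0.27 to -0.05, ACACA from 0.01 to 0.13 and FADS2 from 0.47 to -0.23. FADS1 went from 0.30 to -0.10 and FASN from 0.34 to -0.08. Whether this change differed by sex was not tested. Fitted on the 8 group means alone, without a term for sex, limma called 0 members, with 0 at an unadjusted p under 0.05. That fit called 1 gene in all.

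**Figure D3:**
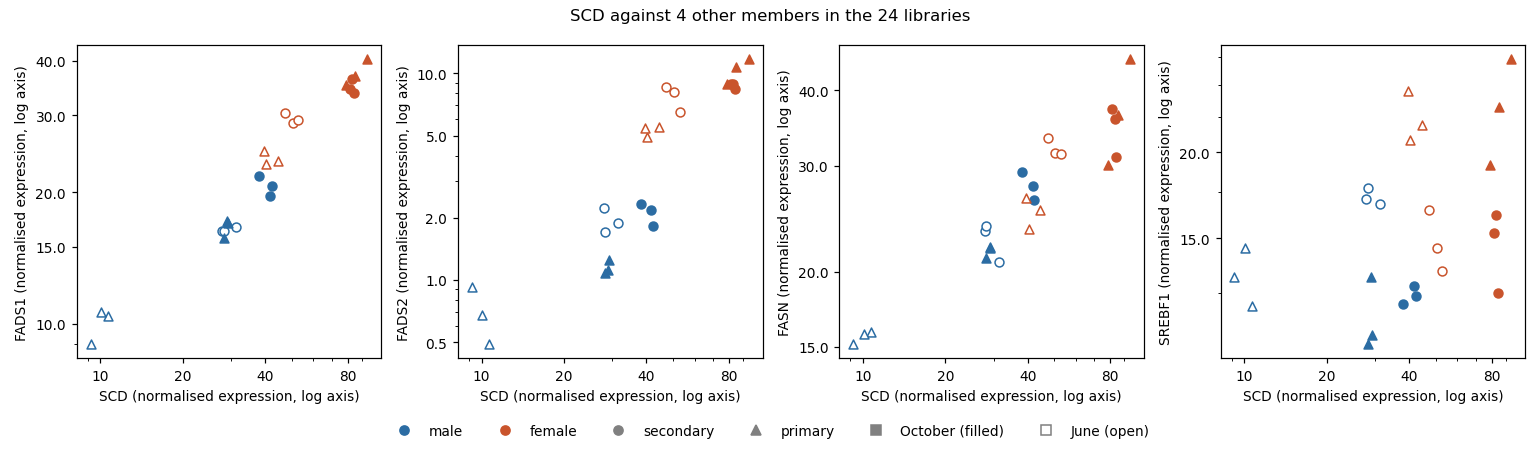
SCD (x axis) against FADS1, FADS2, FASN and SREBF1 (y axes) in the 24 libraries, as normalised expression on log axes; colour gives sex, circles secondary and triangles primary cells, filled October and open June. FADS1 and FASN lie along a band with SCD, with r of 0.98 over group means for each, while SREBF1, with r of 0.44, does not.

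Over the 8 group means on the log2(value + 1) scale, SCD, FASN, FADS1 and FADS2 varied together. Pearson's r was 0.98 for SCD with FASN, for SCD with FADS1 and for FASN with FADS1, 0.96 for FADS1 with FADS2, and 0.90 for SCD with FADS2. ACLY, at 0.77, and ELOVL6, at 0.73, were next to SCD, then SREBF1 and LPIN1, at 0.44 each, and ACACA, at 0.09, and ELOVL5, at 0.08, were not. SREBF1 was closest to FADS2, at 0.61. These are descriptions over 8 points that share the same libraries and scaling.

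**Figure D4:**
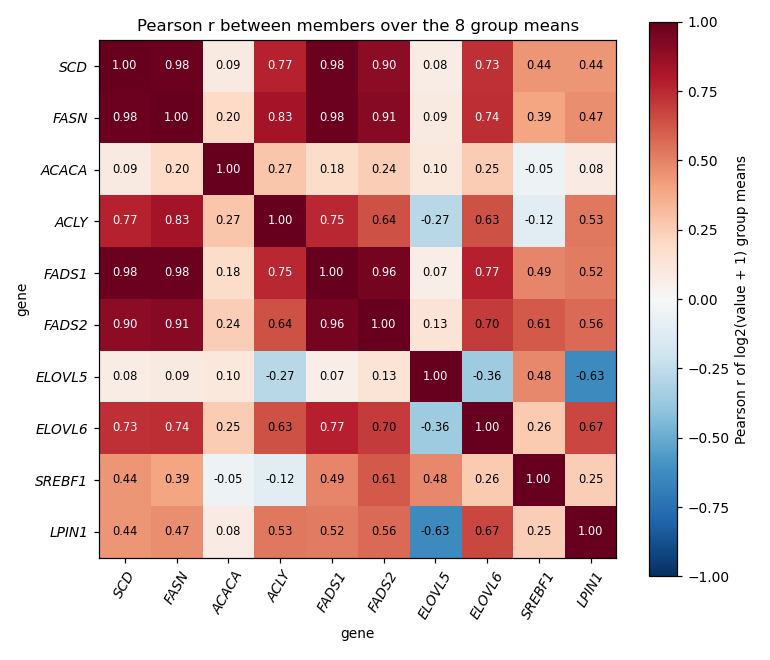
Pearson's r between each pair of the 10 genes over the 8 group means of log2(value + 1). The block of SCD, FASN, FADS1 and FADS2 has r of 0.90 to 0.98, and ACACA and ELOVL5 are near 0 with SCD, at 0.09 and 0.08.

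Among 9981 other genes with a symbol and a group mean of at least 5, those most like SCD over the 8 group means were MSMO1, SQLE, FDPS, SDE2 and MVD, each with r of 0.98. MSMO1, SQLE, FDPS and MVD encode enzymes of cholesterol and isoprenoid synthesis. MSMO1 averaged 35.8 in primary June males and 86.6 in primary June females, and SQLE 12.5 and 32.1 in the same groups, which were the lowest male and lowest female means of both. The genes most like the mean of the 10 members, each standardised, were FDPS at 0.96, FUNDC1, ERGIC2 and HSD17B7 at 0.95, OAT at 0.94, TECR and ANXA5 at 0.93, and SHC2 at 0.92. TECR encodes the enoyl reductase that completes each round of chain lengthening, and HSD17B7 acts in cholesterol synthesis.

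Regulators of the SREBP pathway, 16 of them tested, were lower in males in 8 cases and higher in 0 by the added average over the combinations, with a median of -0.080, where 24.5% of all genes were lower and 25.5% higher. By combination 6 were lower and 3 higher in secondary October cells (20.9% and 19.5% of all genes). In secondary June cells 3 were lower and 4 higher (18.6% and 20.9%). In primary cells 5 were lower and 4 higher in October (17.8% and 15.8%), and 8 and 1 in June (22.3% and 23.1%). Counts by the added average do not show such differences between the combinations. INSIG1, which holds the SREBP complex in the endoplasmic reticulum and is itself a target of it, averaged 9.28 ± 1.45 in males against 25.9 ± 2.48 in females of primary June cells, a difference of -1.39 (limma adjusted p = 6.54e-11). Its differences were -0.995 in primary October and -0.87 in secondary October cells, and 0.17, not called, in secondary June cells. SREBF2, the sterol-responsive sister of SREBF1, was named after its values were seen. It stood at -1.17 in primary June, -0.73 in primary October and -0.19 in secondary October cells, all called, and at -0.0038 in secondary June cells. The part of these regulators in the sex differences of the members was not tested.

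The differences by follicle type or month given from here on for pathway genes were called in the same direction in each sex, unless values by sex are given. Their size could differ by sex, and several calls in 1 sex ended in fits that left out a library. HACD4 by follicle type in October males, at -0.27, lost its call in 5 of 6 such fits (limma adjusted p up to 0.198). ELOVL7 by follicle type in June females, at -0.29, lost it in 4 of 6 (limma adjusted p up to 0.174). By month, IDH1 in secondary males, at -0.12, lost it in 4 of 6 and MBOAT1 in primary females, at -0.16, in 2 of 6. By follicle type in June, INSIG1 was 1.47 higher in secondary cells and ABCA1, a sterol exporter, and MYLIP, a ubiquitin ligase, were lower at -1.26 and -0.83, within a list of 6 higher and 5 lower of 16 (31.6% and 30.3% of all genes). In October ABCA1 differed by -0.45 and PPARG, a regulator of fat cell genes, by -0.30, with 3 higher and 4 lower (17.5% and 14.1% of all genes). PPARG stood at 0.41 in males and -1.01 in females, both called. The list had 5 higher and 4 lower in males (10.9% and 7.63% of all genes) and 2 higher and 6 lower in females (18.3% and 17.2%). The PPARG call ended with a pseudocount of 0.1 (-0.41, limma adjusted p = 0.056). October against June, INSIG1 was 1.24 higher in primary cells, where MID1IP1, a helper of acetyl-CoA carboxylase, and SCAP, the SREBP escort, were lower at -0.41 and -0.36 (3 higher and 8 lower in the list, 28.6% and 32.3% of all genes). In secondary cells MYLIP, at 0.66, and TM7SF2, a sterol reductase, at 0.75, were higher and PPARG lower at -1.08 (5 higher, 10 lower, against 29% and 33.9% of all genes). The list had 4 higher and 8 lower in males (25.3% and 31.2% of all genes) and 5 of each in females (24.2% and 27.1%). The medians by month were -0.15 in primary and -0.14 in secondary cells, and by follicle type 0.011 in June and -0.049 in October.

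Of 15 tested genes that supply precursors and NADPH, 0 were higher and 9 lower in October in secondary cells (median -0.16), where 29% of all genes were higher and 33.9% lower. There 0 were higher and 4 lower in males (25.3% and 31.2% of all genes), and 1 and 9 in females (24.2% and 27.1%). In primary cells 4 were higher and 7 lower (median -0.11), against 28.6% and 32.3% of all genes, with medians of -0.23 in males and 0.023 in females. The cytosolic isocitrate dehydrogenase IDH1, a source of NADPH, differed by -0.27 in secondary and -0.31 in primary cells, where it stood at -0.54 in males and -0.071, not called, in females. PDHA1, a pyruvate dehydrogenase subunit, was lower in secondary cells at -0.38, and ME1, malic enzyme, in primary cells at -0.41, with -0.077, not called, in males and -0.74 in females. In secondary against primary cells the list had 6 higher and 1 lower in June, among them MTHFD1, of folate metabolism, at 0.47, PDHA1 at 0.14 and, lower, the acetyl-CoA synthetase ACSS2 at -0.35, against 31.6% and 30.3% of all genes. ACSS2 was lower in males, at -0.96, and higher in females, at 0.26. The female call ended in 3 of 6 fits without a library (limma adjusted p up to 0.0796). In October it had 1 higher, ME1 at 0.37, and 4 lower, with ACSS1 at -0.41 and ACSS2 at -0.21, against 17.5% and 14.1% of all genes. ACSS1 was called in females, at -0.72, and not in males, at -0.11, and ACSS2 in males, at -0.27, and not in females, at -0.15. The ACSS2 call in October males ended in 5 of 6 fits without a library (limma adjusted p up to 0.178). In October 4 of the list were higher and 2 lower in males (10.9% and 7.63% of all genes), and 1 higher and 7 lower in females (18.3% and 17.2%). The list's medians were 0.051 in June and -0.061 in October, and by the added average 5 were higher and 3 lower in males (25.5% and 24.5% of all genes). By combination the count was 7 higher and 0 lower in males in secondary October cells (19.5% and 20.9% of all genes). It was 2 and 1 in secondary June cells (20.9% and 18.6%). In primary cells it was 0 and 5 in October (15.8% and 17.8%) and 4 and 4 in June (23.1% and 22.3%).

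Among other desaturases and elongation genes 12 were tested. In June 2 were higher and 7 lower in secondary cells, with FADS3, a desaturase of sphingoid bases, at -0.58, the elongase ELOVL7 at -0.83 and the dehydratase HACD2 at 0.32, and in October 5 were higher and 2 lower, with HACD2 and the second stearoyl-CoA desaturase SCD5 at 0.54 each and HACD4 at -0.55. Of all genes 31.6% were higher and 30.3% lower in June, and 17.5% and 14.1% in October. In June females FADS3 stood at -0.20 and ELOVL7 at -0.29. HACD2 in October stood at 1.15 in females and -0.080, not called, in males. In October the list had 1 higher and 1 lower in males (10.9% and 7.63% of all genes). In females it had 4 higher and 3 lower (18.3% and 17.2%). SCD5 averaged 9.12 in primary October males and 22.3 in primary June females, its lowest and highest groups, whereas SCD was lowest in primary June males. October against June in primary cells, 2 were higher and 7 lower, with FADS3 at -1.24, HACD4 at -1.11 and SCD5 at -0.77. In secondary cells 3 were higher and 5 lower, with HACD3 at 0.55, HACD2 at 0.58 and HACD4 at -1.36. There 3 were higher and 6 lower in males (25.3% and 31.2% of all genes), and 3 and 5 in females (24.2% and 27.1%). The shares over all genes were 28.6% higher and 32.3% lower in primary and 29% and 33.9% in secondary cells. The list's medians were -0.19 in June and 0.086 in October by follicle type, and -0.15 in primary and -0.089 in secondary cells by month. Males against females, the list had 2 higher and 9 lower by the added average, with a median of -0.18, against 25.5% and 24.5% of all genes. By combination the count was 1 higher and 8 lower in secondary October cells (19.5% and 20.9% of all genes). It was 2 and 4 in secondary June cells (20.9% and 18.6%). In primary cells it was 2 and 6 in October (15.8% and 17.8%) and 4 and 5 in June (23.1% and 22.3%).

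Genes that activate fatty acids and build glycerolipids, 28 tested, were lower in secondary than primary cells in 12 cases in June and 8 in October, and higher in 5 and 3. Of all genes 30.3% were lower and 31.6% higher in June, and 14.1% lower and 17.5% higher in October. In October males had 4 of the list higher and 2 lower (10.9% and 7.63% of all genes), and females 2 higher and 11 lower (18.3% and 17.2%). The lipid phosphate phosphatases PLPP1, at -1.18 in June, and PLPP3, at -0.41 in June and -0.47 in October, led, with CDS2, which makes CDP-diacylglycerol, at -0.47 in June, LPCAT2, a lysophospholipid acyltransferase, at -0.65 in October and GPAT2 at 0.52 in October. LPCAT2 stood at -0.0031, not called, in males and at -1.30 in females, and GPAT2 was lower in males, at -0.38, and higher in females, at 1.41. The GPAT2 call in males ended in 2 of 6 fits without a library (limma adjusted p up to 0.0719). PLPP3 in October stood at -0.13 in females, a call that also ended in 2 of 6 such fits. October against June they were 12 higher and 11 lower in secondary cells, with PLPP1 at 1.31, GPAT3, a glycerol-3-phosphate acyltransferase, at -1.22 and MBOAT1, another lysophospholipid acyltransferase, at -0.69. There 11 were higher and 11 lower in males (25.3% and 31.2% of all genes), and 8 and 10 in females (24.2% and 27.1%). In primary cells 7 were higher and 11 lower, with MBOAT1 at -0.63, GPAT4 at -0.54 and CDS2 at -0.41. The shares over all genes by month were 29% higher and 33.9% lower in secondary and 28.6% and 32.3% in primary cells. The medians were -0.11 in June and -0.052 in October by follicle type, and 0.0075 in secondary and -0.036 in primary cells by month. By the added average 7 were higher and 7 lower in males, against 25.5% and 24.5% of all genes.

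Uptake and lipid droplet genes, 19 tested, were higher in secondary cells in 10 cases and lower in 4 in June, and higher in 4 and lower in 1 in October, against 31.6% and 30.3% of all genes in June and 17.5% and 14.1% in October. In October 2 were higher and 0 lower in males (10.9% and 7.63% of all genes), and 3 higher and 2 lower in females (18.3% and 17.2%). FABP5, a fatty acid binding protein, differed by 1.52 in June and 0.74 in October, CIDEC, a lipid droplet protein, by 1.88 and 0.42, and the fatty acid transporter CD36, at most 6.19 in any group mean, by 1.35 in June, while G0S2, a lipase inhibitor, differed by 0.65 in October. In October FABP5 stood at 0.26 in males, not called, and 1.22 in females, G0S2 at 0.34, not called, and 0.97, and CIDEC at 0.63 in males and 0.21, not called, in females. In secondary cells 3 were higher and 12 lower in October than in June, with the droplet coat protein PLIN2 at -0.63, CD36 at -1.64 and CIDEC at -1.44. There 2 were higher and 12 lower in males (25.3% and 31.2% of all genes), and 2 and 5 in females (24.2% and 27.1%). In primary cells 5 were higher and 8 lower, with PLIN2 at -0.44, G0S2 at -0.99 and the caveolar protein CAV1 at 0.24. CAV1 was lower in males, at -0.12, and higher in females, at 0.60, and G0S2 was called in males, at -1.61, and not in females, at -0.37. The CAV1 call in males ended in 5 of 6 fits without a library (limma adjusted p up to 0.109). G0S2 was called in females without primary October female replicate 3 (-0.58, limma adjusted p = 0.0227). The shares over all genes by month were 29% higher and 33.9% lower in secondary and 28.6% and 32.3% in primary cells. The medians were 0.14 in June and 0.016 in October by follicle type, and -0.24 in secondary and -0.069 in primary cells by month. By the added average 5 were higher and 7 lower in males, against 25.5% and 24.5% of all genes.

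Fatty acid oxidation genes, 23 tested, had 11 higher and 3 lower in males by the added average, with a median of 0.088, against 25.5% and 24.5% of all genes. By month, secondary cells had 1 gene higher and 15 lower in October, where 29% and 33.9% of all genes were. There 2 were higher and 14 lower in males (25.3% and 31.2% of all genes), and 0 and 11 in females (24.2% and 27.1%). Primary cells had 1 higher and 8 lower (28.6% and 32.3% of all genes). CPT1A, the carnitine palmitoyltransferase that admits fatty acids to mitochondria, differed by -0.42 in secondary and -0.21 in primary cells, and PPARGC1A, a coactivator of mitochondrial genes, by -1.22 and -1.06. ETFA, an electron carrier of oxidation, was lower in secondary cells at -0.21, and PPARD, a nuclear receptor for fatty acids, in primary cells at -0.34. In secondary against primary cells, PDK4, a kinase that shuts off pyruvate dehydrogenase, was lower in June, at -1.45, and in October, at -1.51. The list had 8 higher and 6 lower in June, with ETFA at 0.22 and ACAA1, of peroxisomal oxidation, at -0.41, and 2 higher and 7 lower in October, with the carnitine carrier SLC25A20 at -0.30 and CPT1A at -0.20. Of all genes 31.6% were higher and 30.3% lower in June, and 17.5% and 14.1% by the October mean over the sexes. In October the list had 1 higher and 3 lower in males (10.9% and 7.63% of all genes). In females it had 1 higher and 9 lower (18.3% and 17.2%). The medians were -0.14 in secondary and -0.050 in primary cells by month, and 0.030 in June and -0.030 in October by follicle type. With the 8 group means as single samples, 70 of the 72 calls of the pathway genes named by the rule ended. Those of CIDEC and PLPP1 in secondary against primary cells in June did not. Sex had no term in that fit, so differences between males and females counted as spread.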

How the data were processed

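Per the labels' protocols, total RNA of 24 dermal papilla cell preparations was extracted with RNAiso Plus and sequenced as paired-end libraries. Per the submitters' processing notes, the tools were kallisto 0.46.1 and sleuth 0.30.0, whose roles are not stated. Build, transcripts, filters and read depth were not given in the sources used here. What the authors deposited is a normalised expression signal, 1 value per gene and library with 2 decimals, whose totals have a geometric mean of 1000000. They are not counts, so no counting interval is given and precision rests on 3 libraries a group. Levels were not compared between genes, since scaling by length is not stated. The RefSeq table of assembly ARS1.2 held 20294 of the gene IDs and served for names only.

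Genes that reached a value of 1 in 3 libraries were fitted as log2(value + 1) in limma 3.58.1 (R 4.3.3), with 8 group means, all 24 libraries, a variance trend and robust estimation. Fold changes on this scale understate those of weakly expressed genes. P-values are Benjamini-Hochberg adjusted over 13049 genes, and a gene was called under 0.05. There were 22 comparisons, of which the mean of the 4 sex differences was added after the data were seen. Comparisons that use the same groups share those libraries and are not independent. Data were simulated for secondary against primary cells in June, mean of the sexes, with 13049 genes and normal noise independent between libraries. The fit called 44 of 50 genes changed 1.25-fold, 50 of 50 for every larger fold tried (1.5, 2 and 4), and 12 of 12849 unchanged genes. The changed genes were drawn from a level above that of FADS2 and LPIN1 (medians of 3.615 and 4.355). These rates hold for that setting only.

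The members, the 6 pathway lists, the marker lists and the tests were chosen with earlier results of these data known. Besides the members, the text names the 3 called genes of each pathway list with the smallest p in each of the 4 comparisons averaged over the sexes, the 8 genes most correlated with the members' mean and the 5 most correlated with SCD; SREBF2 is an addition. Some genes that this rule names are not reported here. Alternatives were other filters, a pseudocount of 0.1, a non-robust spread, 2 other scalings, the compared groups alone, the replicate number as a block, each library left out, and the 8 group means as single samples.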

Additional observations from a re-analysis of the deposited data

Results flagged for a closer look

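The results listed here drew attention because the test of a difference between effects, an interaction in the limma fit of all 24 libraries, was called; groups of 3 libraries were not examined for outlying samples. Between months, October minus June and averaged over the sexes, the secondary against primary difference changed by -0.65 for SCD and -0.29 for FASN. It changed by 0.37 for ACACA, -0.38 for FADS1 and -0.48 for FADS2.

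Between the sexes, males minus females, the secondary against primary difference in June was 1.19 for SCD, -0.25 for ACACA, -0.28 for ACLY, 0.37 for FADS1, 0.32 for ELOVL5, -0.3 for ELOVL6 and 0.93 for SREBF1, which is 4 called higher and 3 lower against 20.9% and 20.4% of all genes. The calls of ACACA and ELOVL6 there ended in 5 and 6 of 12 fits without a library, and rescaling each library to a common total left 5 higher and 1 lower. In October the same difference was 0.53 for SCD, 0.43 for FASN, 0.25 for ACACA, 0.4 for FADS1, 0.76 for FADS2, 0.22 for ELOVL5 and 0.73 for SREBF1. FASN lost its call there without secondary October female replicate 1, secondary October male replicate 1 or primary October female replicate 3 (0.35 without the first of these, adjusted p = 0.0632 in limma), and ACACA and ELOVL5 in 6 of 12 fits each.

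For October against June, males minus females, secondary cells gave -0.25 for SCD, 0.44 for ACACA, 0.55 for ELOVL6 and -0.43 for SREBF1, with 17.3% of all genes called higher and 20.4% lower. SCD lost its call in 7 of 12 fits without a library. Primary cells gave 0.41 for SCD, -0.21 for ACLY, -0.51 for FADS2 and -0.33 for LPIN1, with 17.7% of all genes higher and 19.1% lower. A common total left 2 higher and 1 lower there. The FADS2 value was -0.28 and not called with a pseudocount of 0.1 (limma adjusted p = 0.349), and LPIN1 lost its call in 7 of 12 fits without a library.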

How the results depend on the processing

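No member changed its direction in a called comparison under any alternative run. With the 8 group means as single samples, 0 members were called in the 4 comparisons averaged over the sexes or in the difference between months. In the added average of males against females 1 member was called. That fit has fewer samples. Except for the added average it had no term for sex, so differences between males and females counted as spread. With the compared groups alone, 4 members were called in the October difference of secondary against primary between the sexes. Leaving out each library in turn, 3 to 7 members were called in males against females in secondary October cells, and 2 to 4 in the difference between the sexes of October against June in secondary cells, with 2 without secondary June female replicate 1, secondary October female replicate 2 or 3, or secondary October male replicate 1. Of the 220 results of single members, the pseudocount of 0.1 kept 216, median-of-ratios factors 215, no filter 212, a common total 199 and a filter of 1 in 6 libraries 220 on their side of the threshold. A common total moved the median of all genes by over 0.1 in 1 comparison, -0.11 in October against June in secondary cells, males minus females.

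No clear pairing of the libraries by replicate number was seen, though this check cannot exclude shared animals. Deviations of same-numbered libraries correlated with r from -0.28 to 0.35 (median 0.034). Those of other pairs had r from -0.40 to 0.51 (median -0.017). Of 24 libraries, 11 correlated best with their own number. With the replicate block, 7 members were called in males against females in secondary October cells and 5 in the difference between the sexes of October against June in secondary cells, and the other counts of members called did not move. The depth behind the values is unknown, and FADS2 lay under 1 in the 3 primary June male libraries.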
